A study of Mus musculus with 4 samples.

Results

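Recombinant interleukin-22 (IL-22) placed in the airways was compared with phosphate-buffered saline (PBS) in lungs of wild-type C57BL/6 mice. The pair was taken by its sample titles and makes up 2 of the 4 libraries of the series. Both libraries are total lung RNA, taken 24 h after the agent was given through the trachea. The other pair is wild-type lung and lung of mice lacking Il22, both given repeated doses of house dust mite (HDM), an allergen, and taken 48 h after the last dose. Strain and tissue are the same in all 4 groups. The labels give no dose, age, sex or number of animals, and leave unsaid if each library holds RNA of 1 animal or of several. There is 1 library per group, so no difference below has a replicate check, and spread between animals was not measured.

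IL-22 is a cytokine of the IL-10 family that T helper and innate lymphoid cells release. Its receptor joins IL22RA1, found mainly on epithelial cells, with the widely expressed IL10RB, and signals through JAK1, TYK2 and the transcription factor STAT3. In lung and gut epithelium it is known for inducing antimicrobial and mucus proteins, and in liver for inducing acute phase proteins. Most cells of blood-cell origin, macrophages included, are thought to lack the receptor.

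Expression was given as FPKM, fragments scaled by transcript length and depth. Differences are of log2(FPKM + 1), IL-22 minus PBS, a scale that understates the change of low genes. A gene was measured at a mean FPKM of at least 1 over the pair, and is called higher or lower where the difference reaches 1 either way. Of 13186 measured genes outside the small RNAs, 62 (0.47%) were higher with IL-22 and 6 (0.0455%) were lower. The median difference was 0.04, and the central 95% of genes lay between -0.33 and 0.52, with 58.6% of genes above 0. By the steps of its low values the IL-22 library held an estimated 1.44 times as many reads as the PBS library (an estimated 28650000 against 19850000). The median fell with level, from 0.09 among genes of 1 to 2 FPKM to -0.08 among those over 100 FPKM. Both libraries had the markers of lung at high levels: Scgb1a1, the club cell secretoglobin, was 20.5% of all FPKM with PBS and 17.6% with IL-22, and Sftpc, of alveolar type II cells, stood at 35759 and 31732 FPKM.

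The largest group among the 62 higher genes was one of macrophage and other myeloid genes. Assigned by known role after their values were seen, 26 were macrophage and myeloid genes, 7 muscle genes, 7 fat genes, 6 airway secreted proteins and 2 acute phase proteins. Genes with a near-identical copy, structural RNAs, predicted genes and a small mixed group made up the others. Only 12 of the 26 stand on a gene list used here. Roles were given only to genes past the rule, so the share of each role among all measured genes is not known. The counts thus do not show that any role is over-represented. Of the 62, 12 had an FPKM under 1 with PBS and so were measured only through the IL-22 library. For 54 of them reads could be estimated, and for all 54 the exact 95% interval of the read ratio after depth lay above 1.5. These intervals cover counting error only. They come from the same values by which the genes were picked, so intervals away from 1 are no separate support. Just inside the rule were Cfd (1.01), Tlr1 and Optc (both 1.02), and just outside it Aoah, Hmga1 (both 0.99) and Myh11 (0.98).

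**Figure D1:**
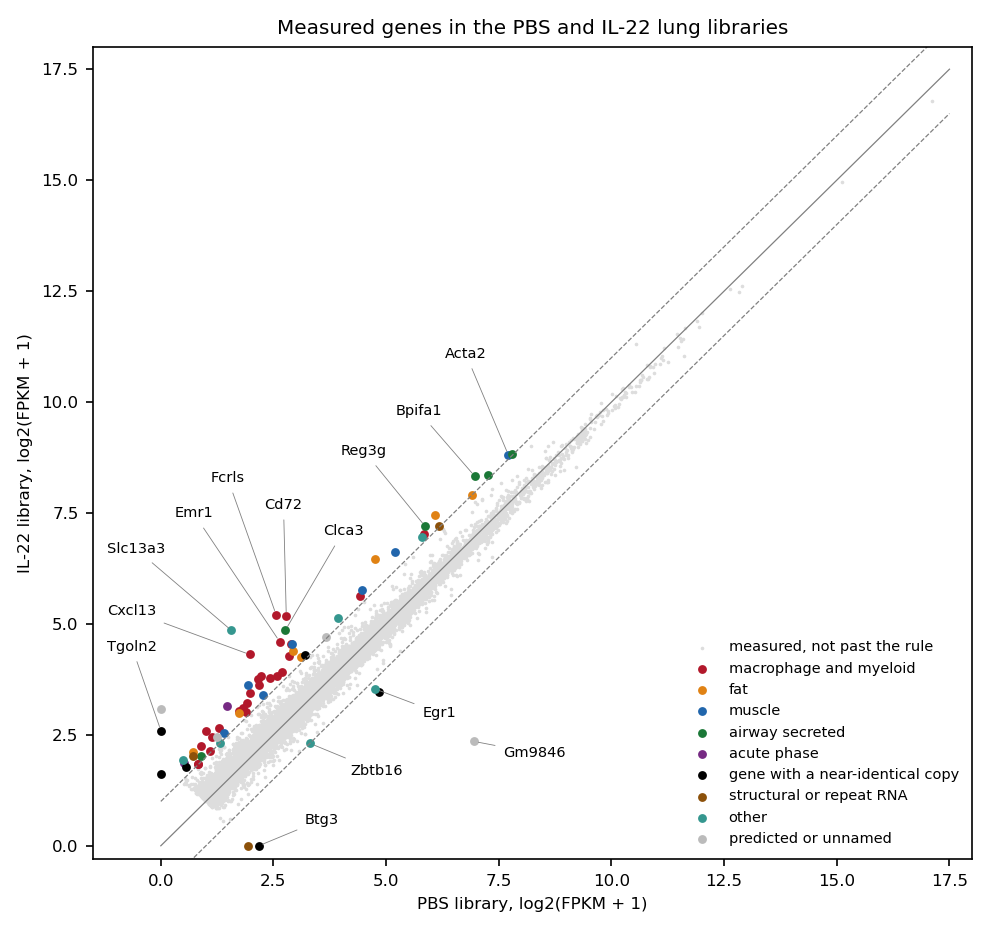
FPKM of each measured gene outside the small RNAs in the PBS library (x axis) and the IL-22 library (y axis), both as log2(FPKM + 1). The solid line marks equal levels and the dashed lines a difference of 1 either way. Coloured points are the 62 higher and 6 lower genes by role. Of the 62, 22 have a mean of 5 to 20 FPKM, among 5260 measured genes there. A further 8 lie over 100 FPKM, among 800 measured genes.

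Fcrls and Cd72, both receptors of the cell surface, had the largest differences of the myeloid group, and other surface receptors were among its 26 genes. Fcrls, an Fc receptor-like scavenger receptor known from microglia and other macrophages, stood at 4.88 FPKM with PBS and 36.0 with IL-22, from 201 and 2141 estimated reads. After depth this is a ratio of 7.38 (exact 95% interval 6.38 to 8.57) and a difference of 2.65. Cd72, an inhibitory lectin of B cells and macrophages, went from 5.89 to 35.0 FPKM, a read ratio of 5.97 (5.02 to 7.16). Of 19 measured B cell markers Cd72 alone was higher, while 16 lay above 0, the median was 0.19 (0.13 at a mean FPKM of at least 5) and the summed FPKM was 167 with PBS and 203 with IL-22. Cd79a, a chain of the B cell receptor complex, stood at 31.2 and 33.4 FPKM. Emr1, the F4/80 antigen that marks mouse macrophages, stood at 5.21 and 23.3 FPKM, with a ratio of 4.47 (3.97 to 5.05). Siglece, an inhibitory receptor for sialic acid (chr7:43648882-43672044, GRCm38.p6), had 119 reads with PBS and 625 with IL-22, a ratio of 3.64. Clec4a1, a C-type lectin receptor, was at 3.42 and 12.6 FPKM, and C3ar1, the receptor of complement fragment C3a, at 1.01 and 5.05 (82 and 594 reads). Itgam, the CD11b chain of an adhesion and complement receptor, was at 4.32 and 12.7.

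Genes that act inside myeloid cells, or that these cells secrete, were also among the 26. Aif1, which encodes the calcium-binding protein IBA1, stood at 6.39 FPKM with PBS and 22.4 with IL-22, a difference of 1.66. Cxcl13, a chemokine that draws B cells and that macrophages of body cavities make, had 55 and 513 reads and a ratio of 6.46 (4.89 to 8.70). C1qb, a chain of the complement starter C1q, went from 56.0 to 129 FPKM, a difference of 1.19. The partner chains C1qa (76.3 and 139 FPKM) and C1qc (42.1 and 80.1) had differences of 0.86 and 0.91, just under the size rule. Ebi3, a shared subunit of IL-27 and IL-35, was at 3.56 and 11.4 FPKM. Its partners were near the lower limit: Il27 had 8 reads with PBS and was listed at 0 with IL-22, and Il12a stood at 0.747 and 1.15 FPKM. The leukocyte genes Lrrc25, Slamf9 and Lst1 had differences of 1.47, 1.43 and 1.20. Slc11a1, the phagosomal metal transporter, had a difference of 1.29, and the signalling genes Prkcb, Pik3r5, Fyb and Stap1 lay between 1.05 and 1.37. The toll-like receptor Tlr1 (1.02) and the B cell and monocyte transcription factor Pou2f2 (1.02) were at the edge of the rule, and both drop below it when the libraries are scaled by their median ratio.

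The promoters of these genes are shown because myeloid genes were the most numerous role among the 62 and because STAT3 carries the IL-22 signal. Each is the 250 bases before a RefSeq transcript start (GRCm38.p6), 5′ to 3′ on the strand of the gene, which is the minus strand for all 5. Capitals mark GAGGAA, or its reverse complement TTCCTC, the core that the myeloid factor PU.1 of the ETS family is known to bind. The regions are chr3:87263525-87263774 for Fcrls, chr4:43454627-43454876 for Cd72, chr17:35176053-35176302 for Aif1, chr4:136886201-136886450 for C1qb and chr6:78468875-78469124 for Reg3g, an antimicrobial lectin described further on.
Fcrls: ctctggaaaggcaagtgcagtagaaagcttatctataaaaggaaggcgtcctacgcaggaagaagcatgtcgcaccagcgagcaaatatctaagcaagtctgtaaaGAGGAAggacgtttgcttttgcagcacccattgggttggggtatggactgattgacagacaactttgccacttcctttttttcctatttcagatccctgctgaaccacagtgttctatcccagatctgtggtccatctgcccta
Cd72: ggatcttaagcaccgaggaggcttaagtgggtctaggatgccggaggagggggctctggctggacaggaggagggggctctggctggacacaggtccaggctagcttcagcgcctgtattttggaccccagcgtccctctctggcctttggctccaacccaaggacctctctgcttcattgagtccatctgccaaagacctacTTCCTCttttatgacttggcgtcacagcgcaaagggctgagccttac
Aif1: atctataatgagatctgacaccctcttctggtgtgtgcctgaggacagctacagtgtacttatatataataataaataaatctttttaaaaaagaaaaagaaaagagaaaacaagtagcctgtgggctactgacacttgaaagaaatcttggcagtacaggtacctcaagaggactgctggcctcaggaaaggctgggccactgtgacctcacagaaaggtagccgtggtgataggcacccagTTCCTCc
C1qb: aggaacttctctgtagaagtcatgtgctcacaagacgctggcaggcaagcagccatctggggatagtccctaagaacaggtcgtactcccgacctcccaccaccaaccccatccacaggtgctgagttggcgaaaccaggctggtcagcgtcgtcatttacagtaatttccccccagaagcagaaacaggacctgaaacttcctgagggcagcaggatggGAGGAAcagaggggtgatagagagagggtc
Reg3g: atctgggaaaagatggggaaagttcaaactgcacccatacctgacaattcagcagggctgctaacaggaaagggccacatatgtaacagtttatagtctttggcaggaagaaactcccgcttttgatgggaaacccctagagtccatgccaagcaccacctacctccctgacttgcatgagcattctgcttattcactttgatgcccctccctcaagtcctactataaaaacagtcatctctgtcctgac
The match began 144 bases before the start in Fcrls, 47 in Cd72, 7 in Aif1 and 30 in C1qb. Reg3g had none. The Fcrls and Cd72 starts lie 241 and 476 bases inside the outer end of the RefSeq gene.

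Both strands of the 250 bases were searched. Of the 26 myeloid genes, 22 had a window, and 14 of these (63.6%) held GAGGAA on either strand. Siglece is among the 14, though the start of its window lies 11883 bases inside the outer end of the RefSeq gene. The motif was in 22.8% of 10353 windows of all measured genes. Macrophage and monocyte markers that were neither higher nor lower with IL-22 held it in 21 of 42 windows (50%), so it was common among such markers whether or not they were past the rule. The STAT motif TTCNNNGAA, which can overlap TTCCTC, was in 5.98% of all windows and in 0 of the 48 windows of higher or lower genes, Reg3g included. The CArG box of muscle genes was in 1 of 5 windows of the higher muscle genes, that of Asb2, and in 1.19% of all. A match is only a description of letters in this window, and its absence says nothing of sites elsewhere.

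Within the macrophage markers the differences were uneven. Among interstitial macrophage markers 6 of the 29 measured were higher, but the median of the list was 0.09 against 0.04 for all genes, and 13 of 29 lay below 0 (8 under scaling to a common FPKM total). The 6 are Emr1, Aif1, Itgam, Cd209f (a lectin of the DC-SIGN family, 1.30), C1qb and Ms4a7 (a tetraspan membrane protein, 1.12). Some members of the list stood below their PBS level: Csf1r, the growth factor receptor of the lineage, stood at 27.1 FPKM with PBS and 24.4 with IL-22, Cd68 at 75.5 and 64.7, and Mertk at 6.96 and 6.51. Trem2, a lipid-sensing receptor, was at 5.36 and 3.75 FPKM, a read ratio of 0.700 (0.521 to 0.941). The summed FPKM of the 29 markers was 8722 with PBS and 7394 with IL-22, of which Cbr2, a gene that club cells also express, was 7280 and 5715. In bulk lung, more cells of a type and more RNA per cell cannot be told apart.

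Other macrophage lists differed in sign. Of 20 measured alveolar macrophage markers 16 lay below 0, with a median of -0.15, and 12 did under scaling to a common FPKM total. Abcg1, a cholesterol exporter, stood at 17.3 and 11.498 FPKM, Marco, a scavenger receptor, at 25.3 and 21.6, and Mrc1, the mannose receptor, at 11.4 and 10.5. The 1 higher gene of that list was Fabp4, which is also a fat cell gene. Of 21 monocyte markers 2 were higher, Itgam and Pou2f2, and the median was 0.18. Cx3cr1, the fractalkine receptor, stood at 3.51 and 6.82 FPKM, Ccr2, the receptor that brings monocytes into tissue, at 5.11 and 6.86, and Ly6c2, of inflammatory monocytes, at 69.8 and 73.5. Of 17 markers of pleural and peritoneal macrophages 3 were higher (Cxcl13, Emr1 and Itgam), with a median of -0.00, and Timd4, a defining one, was at 1.19 and 1.07 FPKM. Fcrls, Cd72, Siglece and Slc13a3 also stand on a list of genes that microglia and other macrophages share. That list of 12 was put together with their values known, and its further members stayed under the rule, among them Tmem119 at 41.9 and 40.1 FPKM and P2ry12 at 1.82 and 2.07.

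Gene families of the myeloid group moved only in part. Among 4 measured Cd209 genes, Cd209f and Cd209g were higher, at 1.30 and 1.36, while Cd209a and Cd209d lay at -0.37 and -0.33. Of 9 Ms4a genes 8 lay above 0 under the deposited scaling and 2 were higher, Ms4a6c (1.23) and Ms4a7. All 6 measured Clec4 genes lay above 0, from 0.15 for Clec4n to 1.62 for Clec4a1. In the Cd300 family Cd300lh was higher (1.31), Cd300ld stood at 0.94 and Cd300lf at -0.37. Of 9 toll-like receptors Tlr1 alone was higher, and of 3 measured Siglec genes Siglece alone.

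Of the 62 higher genes, Slc13a3 had the largest difference. It encodes the sodium-coupled carrier of succinate and other dicarboxylates (chr2:165405295-165473197, GRCm38.p6). It stood at 1.96 FPKM with PBS and 27.9 with IL-22, from 130 and 2654 reads, a ratio of 14.1 (11.9 to 17.0). It was the only higher gene among 14 measured dicarboxylate and other solute carriers, whose median was 0.01. Within its own family Slc13a2 stayed at 0.151 and 0.295 FPKM, and Slc13a5 was listed at 0 and 0.0225. The other higher genes of mixed role were Sost, an inhibitor of Wnt signalling best known from bone (15 and 151 reads), Basp1, a membrane-bound signalling protein (14.3 and 34.0 FPKM), AU040972 (54.5 and 123) and Optc, an extracellular matrix protein (1.48 and 4.02).

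**Figure D2:**
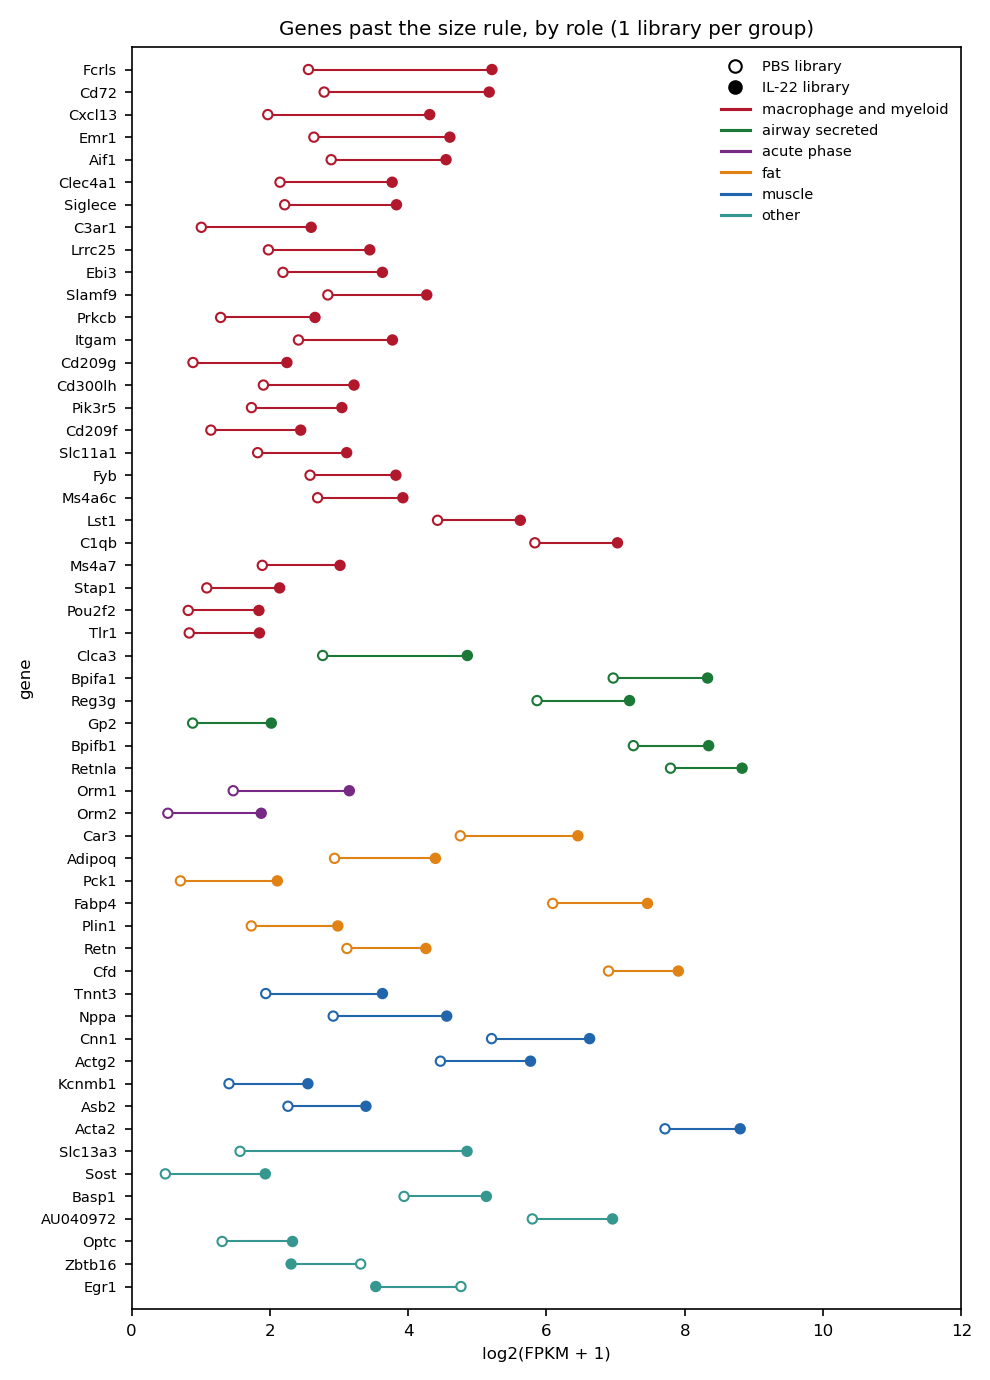
Level of each named higher or lower gene as log2(FPKM + 1) with PBS (open circles) and IL-22 (filled circles), 1 library each, ordered by role and by difference. The line between the circles is the difference: it points to the right in all genes shown but Zbtb16 and Egr1. Genes with a near-identical copy and structural RNAs are left out.

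Genes mainly of proteins that the airway epithelium secretes made up a further set. Clca3 (Clca1 in RefSeq), a goblet cell protein that processes mucus, stood at 5.79 FPKM with PBS and 27.9 with IL-22, a read ratio of 4.83 (4.34 to 5.38). Reg3g, an antimicrobial lectin and a known target of IL-22, had 649 and 2391 reads, a ratio of 2.55 (2.34 to 2.79). Bpifa1, a surfactant-like antimicrobial protein of the upper airway, was at 124 and 321 FPKM, and its relative Bpifb1 at 152 and 324. Gp2, a bacterial uptake receptor of M cells, had 30 and 157 reads. Retnla, a secreted product of airway cells and of alternatively activated macrophages, was at 221 and 454 FPKM, a difference of 1.04 that drops to 0.99 under scaling by the median ratio.

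Around these genes the secretory markers shifted less. Among goblet cell and mucus genes 2 of the 11 measured were higher (Clca3 and Bpifb1) and 10 lay above 0, the median being 0.42 (0.27 without a filter). Muc5b, the main mucin of the resting mouse airway, stood at 9.31 and 12.8 FPKM, and Agr2, which folds mucins, at 3.95 and 6.83. Muc5ac, the inducible mucin, was below the measuring filter at 0.438 and 0.457 FPKM, and Spdef, the goblet cell transcription factor, was at 1.57 and 1.73. Club cell markers had a median of 0.00, with Scgb3a1, a secretoglobin of larger airways, at 1499.9 and 2515 FPKM and Scgb1a1 at a difference of -0.33. Of 17 ciliated cell markers 14 lay above 0 and none was higher, with a median of 0.23. Alveolar type I markers went the other way, with 11 of 13 below 0 (8 under scaling to a common total), a median of -0.16 and Ager, their main surface receptor, at 3129 and 2099.6 FPKM.

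The receptor and its signalling chain stayed within the size rule. Of 17 measured genes none was higher or lower, and the median was 0.03, which turns to -0.01 under scaling by the median ratio. Il22ra1 had 44 reads with PBS and 97 with IL-22, a ratio of 1.53 (1.06 to 2.23). Il22ra2, which encodes the soluble decoy receptor, had 45 and 40 reads, a ratio of 0.616 (0.392 to 0.964), but lay below the measuring filter. Il10rb stood at 46.6 and 44.3 FPKM, Stat3 at 32.6 and 32.9, and Tyk2 at 5.04 and 6.61. Socs3, a feedback inhibitor that STAT3 induces, was at 9.30 and 12.4 FPKM, a read ratio of 1.33 (1.18 to 1.499) and a difference of 0.38. Il22 itself and its copy Iltifb were listed at 0 in both libraries.

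Of 25 measured genes known as IL-22 or STAT3 targets in epithelium, Reg3g alone was higher, and 12 lay above 0 (18 under scaling to a common total). Their median was -0.00, and 0.10 when the libraries are scaled to a common total, which shifts the median of all genes to 0.13. The largest of the others were Ltf, the iron-binding protein lactoferrin (19.8 and 39.4 FPKM, 0.96), and Saa1 (0.495 and 1.799 FPKM, 4 and 21 reads). Slpi, a secreted protease inhibitor, had the most negative difference, -0.51. Reg3b, the close relative of Reg3g, was listed at 0 in both libraries.

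Acute phase proteins were in part higher. Orm1 and Orm2, plasma glycoproteins made mainly by liver, had 20 and 130 reads and 5 and 44 reads, with ratios of 4.50 (2.80 to 7.62) and 6.10 (2.42 to 19.7). They are close copies, so reads can be split between them, and the third, Orm3, had 9 and 20 reads. Of 19 measured acute phase genes 2 were higher, 16 lay above 0 and the median was 0.28. Hpx, which binds haem, had a difference of 0.94, while Hp, which binds haemoglobin, stood at -0.14. Saa3 and Lcn2, to be named whatever their values, had differences of 0.28 and 0.34.

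Among secreted signals of immune cells, Cxcl13 was the only higher gene of 30 measured chemokines. Their median was 0.32, and 21 lay above 0, but the median was 0.07 over chemokines with a mean FPKM of at least 5 and 0.22 without a filter. Ligands of CCR2, which draw monocytes, had differences of 0.77 (Ccl2), 0.48 (Ccl7) and 0.61 (Ccl12). Cxcl9, a target of interferon gamma, stood at 0.89, and Ccl21a, on the lists of lymphatic endothelial and lymph node stroma markers, at -0.91. Interferon genes did not go with Cxcl9: of 18 type I interferon response genes none was higher or lower, and 18 of 21 antigen presentation and interferon gamma genes lay below 0 (12 under scaling to a common total), with a median of -0.12. Cd74, the class II invariant chain, was the lowest of them at -0.27.

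Fat and muscle genes made up 14 of the 62 higher genes. Car3, a carbonic anhydrase abundant in fat and muscle, stood at 26.0 FPKM with PBS and 86.7 with IL-22, Adipoq, the hormone adiponectin, at 6.65 and 20.01, and Plin1, the coat of fat droplets, at 2.32 and 6.8997. Of 19 fat cell markers 6 were higher, 17 lay above 0 and the median was 0.62 (0.46 without a filter). Their summed FPKM was 442.5 with PBS and 781 with IL-22. Pck1, which makes the glycerol of stored fat, had 31 and 233 reads, Retn, the hormone resistin, stood at 7.65 and 18.1 FPKM, and Cfd, the complement factor that fat cells secrete, at 118 and 239. Lep, the hormone leptin, had 7 and 43 reads, and Ucp1, which defines brown fat, was listed at 0 in both.

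The smooth muscle list shifted as a whole: all 16 measured genes lay above 0 (15 under scaling by the median ratio), 3 were higher and the median was 0.76, with summed FPKM of 756 and 1366. Cnn1, a calponin of contractile smooth muscle, stood at 35.9 and 97.6 FPKM, Acta2, its actin, at 209 and 445, and Actg2, the actin of visceral muscle, at 21.1 and 53.5. Myh11, the smooth muscle myosin, was just outside the rule at 21.8 and 43.9 (0.98). Of 17 heart muscle markers 16 lay above 0 and 1 was higher, Nppa, the natriuretic peptide of the atrium (6.54 and 22.5 FPKM), with a median of 0.39. Tnnt3, a troponin of fast skeletal muscle, was at 2.84 and 11.4 FPKM, the 1 higher gene of 11 skeletal muscle markers. The muscle genes Asb2 and Kcnmb1, a potassium channel subunit, had differences of 1.13 and 1.14. How much lung-adjacent fat, airway wall, vessel or heart was in each sample was not given in the sources used here. Markers of these tissues thus moved in the same pair as the macrophage and airway genes, and their part in those differences was not tested.

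**Figure D3:**
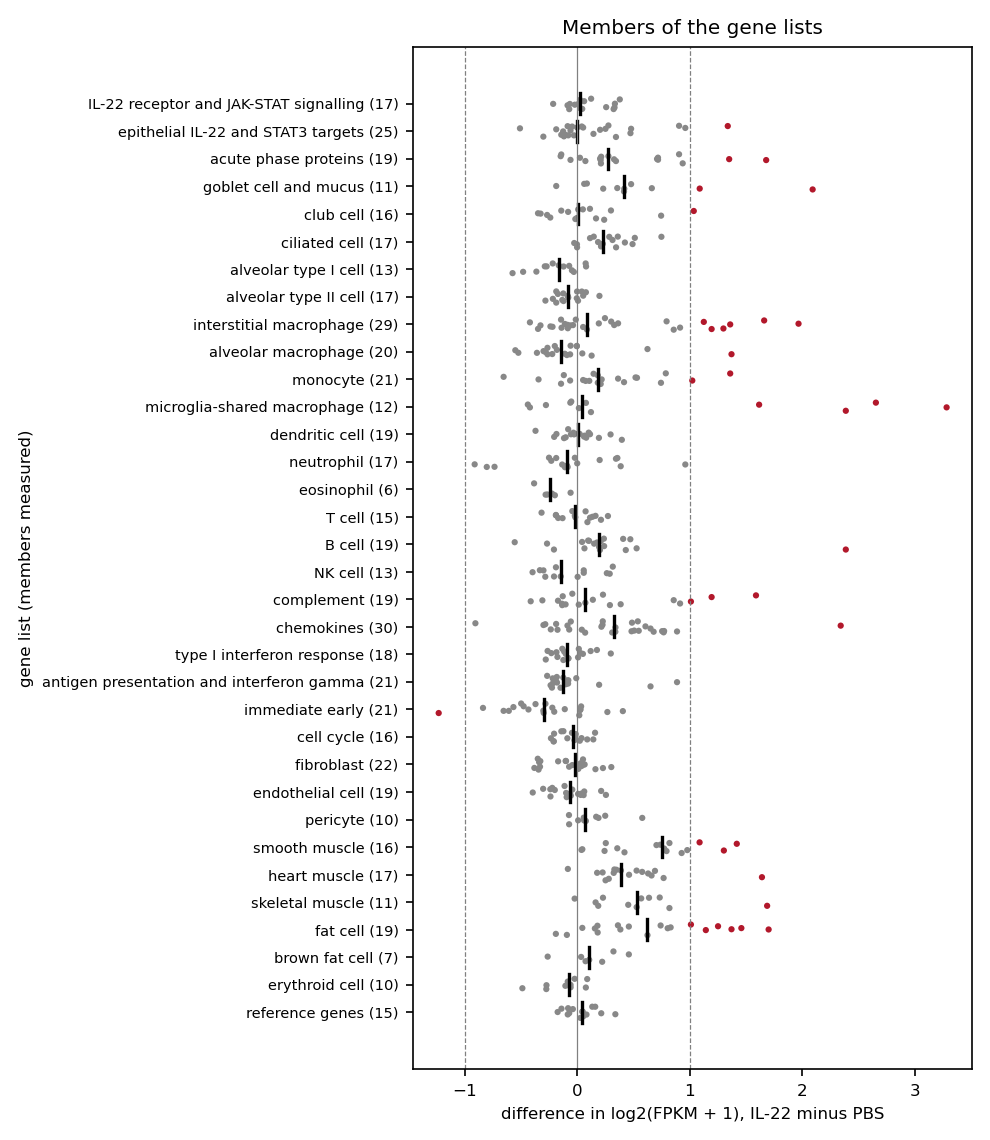
Difference in log2(FPKM + 1), IL-22 minus PBS, of each measured member of selected gene lists (points), with the list median (black bar), the number measured in brackets and red points for members past the size rule (dashed lines). All measured smooth muscle members and 17 of 19 fat cell members lie above 0. In the macrophage and monocyte lists the medians run from -0.15 (alveolar macrophage) to 0.18 (monocyte), and a few members lie far from them.

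Few genes were lower. Egr1, an immediate early transcription factor, stood at 26.1 FPKM with PBS and 10.56 with IL-22, from 1472 and 858 reads, a ratio of 0.404 (0.371 to 0.440). It was the extreme of a shared shift: 15 of 21 measured immediate early genes lay below 0 (19 under scaling by the median ratio), with a median of -0.30. Fos was at 11.1 and 5.77 FPKM and Nr4a1 at 85.7 and 54.1, while Atf3 was at 9.23 and 12.5. Genes of this class are known to be induced within minutes by growth factors and stress. Zbtb16, the transcription factor PLZF of innate-like lymphocytes and a glucocorticoid target, was at 8.94 and 3.94 FPKM, a difference of -1.01 that becomes -0.92 when scaled to a common total. Of 17 measured neutrophil markers 12 lay below 0 and 5 above it (9 and 8 under scaling to a common total). None was past the rule, and the differences ran from -0.91 to 0.96. The granule genes Elane (29 and 12 reads) and Ngp (26.8 and 14.9 FPKM) were below the PBS level. Ltf, the lactoferrin named above, which neutrophil granules also hold, was above it. S100a8, of mature neutrophils, stood at 125 and 125 FPKM.

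Several of the lower and higher genes have near-identical copies, and there the sum over the copies moved little. Btg3, an antiproliferative gene, had 85 reads with PBS and 0 with IL-22, but together with its copy Gm7334 it stood at 63.4 and 54.8 FPKM. Gm9846 (Rps27rt in RefSeq) was at 123 and 4.098 FPKM, and with Rps27 at 1755 and 1558. Oaz1-ps was at 27.7 and 10.1, and with Oaz1 at 435 and 399. On the higher side Tgoln2 was close to 0 with PBS and at 5.05 FPKM with IL-22, and with Tgoln1 at 55.9 and 65.4. Eno1 was at 8.25 and 18.8, and with Gm5506 at 105 and 102. The predicted gene Gm9781 was at 7.44 FPKM with IL-22 and close to 0 with PBS, and with Eif3j the sum was 27.6 and 30.1. Rpl26 (listed near 0 with PBS, 2.07 FPKM with IL-22) and Hist1h2ao (0.470 and 2.42) also belong to families of near copies. The largest difference among the summed pairs was that of Tgoln1 and Tgoln2, 0.22. Of the structural RNAs, Rmrp and Rn45s were higher, at 1.32 and 1.04, and Bc1 was listed at 2.80 and 0.

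Small RNAs, by symbols starting Mir, Snor, Scarna or Rnu, were kept apart. Of 47 measured, 17 (36.2%) were higher and 19 (40.4%) lower, so 76.6% were past the size rule against 0.516% of the other genes. Of these 36, 26 were listed at 0 in 1 of the libraries. Their annotated spans had a median of 87 bases, shorter than the 200 bases of an assumed fragment. Snord47 was listed at 0 with PBS and 229 FPKM with IL-22, and Scarna17 at 495 and 0. Mir29c was at 0.170 and 68.0. With values that switch from 0 to a high FPKM and back, no small RNA is read as changed here.

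The same genes were then set beside the HDM pair, which shares no library with the IL-22 pair. Of the 62 higher genes, 54 were measured there, and 23 of these (42.6%) were lower in the Il22 knockout than in wild type, where 2.26% of all measured genes were. None of the 54 was higher in the knockout (0.386% of all measured genes were). The median difference, knockout minus wild type, was -0.89, and 53 of 54 lay below 0, where 46.1% of all genes did. The exception was the predicted gene 1700013G23Rik at 0.16. Nearly all of the 54 were thus at a lower level in the HDM lung without Il22 than in the HDM lung with it. The 54 include 2 structural RNAs, both lower in the knockout, and 2 genes with a near-identical copy, neither past the rule there. They also include the predicted gene Gm9781 (-1.16), whose sum with its copy moved little with IL-22.

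By role the sizes varied. All 23 measured myeloid genes lay below 0 in that comparison (median -0.80), and 7 of 23 were lower in the knockout. Some lists were lower there too, with 12 of 28 measured interstitial macrophage markers (median -0.72) and 18 of 22 type I interferon response genes. Lower as well were 19 of 21 type 2 effector genes (median -2.35), a list that holds Clca3 and Retnla. The same held for 18 of 32 chemokines (median -1.17), a list that holds Cxcl13. Other lists were not, with medians of 0.92 for erythroid, 0.45 for endothelial and 0.36 for neutrophil markers. No gene of the interferon list was higher with IL-22. Fcrls stood at 6.34 FPKM in wild type after HDM and 2.17 in the knockout, Cd72 at 8.96 and 3.91, Cxcl13 at 7.04 and 1.56, and C1qb at 153 and 43.2. Siglece was at 2.57 and 2.04 and Slc13a3 at 1.67 and 0.943, both within the rule. Of 6 airway secreted genes 3 were lower, with Clca3 at 1343 and 326 FPKM and Reg3g at 214 and 43.4, while Bpifa1 was at 21.5 and 16.6. Of the fat and muscle genes higher with IL-22, 5 of 6 and 2 of 7 were lower in the knockout. Over the whole lists, 4 of 17 fat cell markers were lower (median -0.29) and 1 of 16 smooth muscle markers (median -0.29). So were 10 of 14 heart muscle markers (median -1.13) and 0 of 10 skeletal muscle markers (median -0.49). Adipoq was at 4.66 and 1.53 FPKM and Nppa at 9.97 and 0.701, so markers of adjoining tissue differed in that pair too, and their part in the other differences was not tested. Of the 6 genes lower with IL-22, Bc1 was higher in the knockout (3.74 and 10.3 FPKM) and Btg3, which has a near-identical copy, was lower. Bc1 is shorter than an assumed fragment, as given above, and is not read as changed in either pair. Egr1 was at 5.28 and 4.56 FPKM and Zbtb16 at 24.6 and 26.5, both within the rule.

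**Figure D4:**
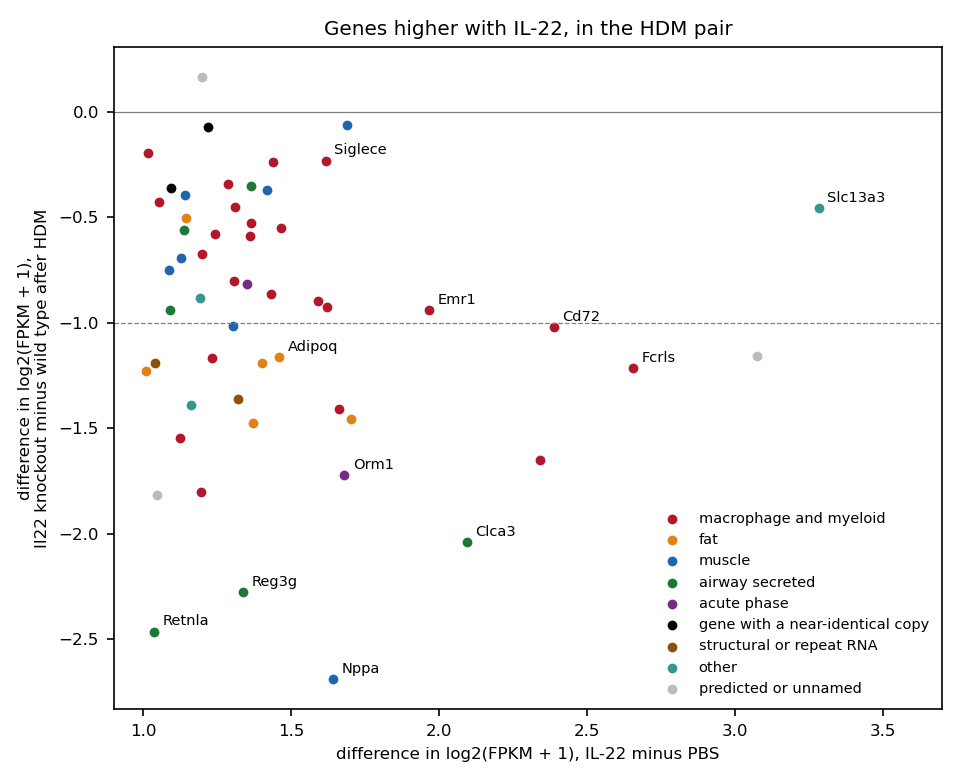
The 54 higher genes that were measured in both pairs, with the difference in log2(FPKM + 1) for IL-22 minus PBS (x axis) and for Il22 knockout minus wild type after HDM (y axis). Points below the dashed line are the 23 genes lower in the knockout, and 53 of 54 points lie below 0.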

How the data were processed

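Lung RNA of 4 groups was sequenced with 1 library each, and the PBS and IL-22 libraries were compared. Per the submitters' processing notes, CASAVA 1.8.2, TopHat2 and Cufflinks 2.2.1 were used with the build mm10. The authors deposited FPKM per gene, and the sources used here give neither settings nor any scaling across libraries. Per the labels' protocols, RNA came from frozen lungs by a column kit and went into standard Illumina libraries.

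Rows of 1 symbol were summed (23746 rows, 23284 genes), 25 symbols turned into dates were restored from their accessions, and 98.2% of genes matched RefSeq on GRCm38.p6, the assembly called mm10. Differences used a pseudocount of 1, a mean FPKM of at least 1 and a size rule of 1. FPKM are not counts, so no count test was run, and with 1 library per group no p-value was computed. Depth was recovered from the steps of low values, with 1 read worth its share of a length less 200 bases. Within 0.1 of a whole read lay 65.4 to 67.5% of low values (20% by chance). Ratios of estimated reads have exact binomial (Clopper-Pearson) 95% intervals. Promoter windows are those of RefSeq, the start nearest the gene's outer end being used.

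Members, the 61 gene lists (38 of cell types) and the tests were chosen with earlier results of these data known. Genes named were those past the size rule outside small RNAs, predicted genes and receptor segments, with up to 4 members of each list by size and a fixed set of IL-22, airway and reference genes. Of that set, Scgb3a2 (0.05), Gapdh (0.13) and Actb (-0.17) are named only here. Further family and list members were named after their values were seen, as were the role groups. Alternatives were a pseudocount of 0.1, 2 scalings, 2 filters, a size rule of 1.5 and the highest row per symbol. Leaving out the named genes with near-identical copies was added after seeing the data. The steps were tested on simulated data. The work ran in Python 3.11.15 with scipy 1.17.1, matplotlib 3.10.9, pandas 2.3.3 and numpy 2.4.6.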

Additional observations from a re-analysis of the deposited data

How the results depend on the processing

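The 62 higher and 6 lower genes became 115 and 15 with a pseudocount of 0.1, all 68 being among the 130. They became 17 and 3 under a size rule of 1.5. Without a filter there were 11 lower genes, and at a mean FPKM of at least 5 there were 39 higher ones. Both scalings, the highest row per symbol and leaving out the 6 named genes with near-identical copies kept both counts within 1.5 times. The last of these left 58 higher and 4 lower genes. It kept the predicted genes Gm9846 (lower) and Gm9781 (higher), which also have such copies, so the counts without every copy were not tested. No gene past the size rule changed sign, while named genes near 0, such as Stat3 and Il10rb, did under a scaling. Scaling by the median ratio put Tlr1, Pou2f2, Cfd, Retnla, Rn45s and Optc below the rule (0.97 to 0.999), and a common total put Zbtb16 there. Of 60 list medians 13 changed sign under a common total and 9 under the median ratio, none of them over 0.09 in size before. No paired analysis was possible because each group has 1 library. With 1 library a group, spread between animals was not measured, and depth limits genes of few reads such as Orm2 and Saa1.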
